A study of Arabidopsis thaliana with 6 samples.

Results

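The miRNAs miR395, miR399 and miR827 (ath-miR395, ath-miR399 and ath-miR827 in the table, with ath for Arabidopsis thaliana) are small RNAs through which Arabidopsis adjusts sulfate and phosphate use. Every mature sequence of the deposited table whose name holds one of these numbers was taken, with all copies and both strands of the hairpin. This gave 9 of the 349 sequences, of which 2 belong to miR395, 6 to miR399 and 1 to miR827. Together they carry 14 miRNA names, because identical copies are listed once under all of their names. Small RNAs came from rosette leaves of plants grown in soil to an age of 3 weeks. The 3 genotypes, all in the Columbia-0 background, were the wild type (WT), the single mutant hyl1-2 and the triple mutant snrk2.2/3/6. Each had 2 biological replicates, which makes 6 libraries in total. The p-values of the main test rest on the spread between 2 samples of a genotype, pooled over the 3 genotypes and shared across sequences. The comparisons of the mutants with WT share the WT libraries. The gene disrupted in hyl1-2 encodes HYL1, a double-stranded RNA-binding partner of the DICER-LIKE 1 enzyme that cuts miRNAs from their hairpins. snrk2.2/3/6 lacks SnRK2.2, SnRK2.3 and SnRK2.6, protein kinases that are activated by the hormone abscisic acid. No treatment was applied, and sulfate or phosphate supply was not varied between the groups. The table holds mature miRNAs only, so neither the leaf label nor the mutated genes could be checked against transcripts.

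miR395 guides cleavage of the mRNAs of the ATP sulfurylases APS1, APS3 and APS4, which activate sulfate for assimilation, and of SULTR2;1, a low-affinity sulfate transporter. It is known to accumulate when sulfate is short. miR399 acts on PHO2, a ubiquitin-conjugating enzyme that lowers phosphate uptake and transport to the shoot, and it rises strongly when phosphate is short. The RNA IPS1, which is also induced when phosphate is short, binds miR399 without being cut and so withdraws it from PHO2. miR827 acts on NLA, a ubiquitin ligase that removes phosphate transporters, and it too is induced by low phosphate. In leaves of plants with enough of both nutrients these miRNAs are typically scarce.

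The sequences are shown because they decide which copies the reads can tell apart. They are written 5′ to 3′ as in the table, with the seed (bases 2 to 8) in capitals.
miR395a/d/e: cTGAAGTGtttgggggaactc
miR395b/c/f: cTGAAGTGtttggggggactc
miR399b/c-3p: tGCCAAAGgagagttgccctg
miR399a: tGCCAAAGgagatttgccctg
miR399d: tGCCAAAGgagatttgccccg
miR399e: tGCCAAAGgagatttgcctcg
miR399f: tGCCAAAGgagatttgcccgg
miR827: tTAGATGAccatcaacaaact
Both miR395 sequences share 1 seed, and so do the 5 miR399 sequences of the strand that pairs with PHO2. miR395a/d/e and miR395b/c/f differ by A17G, counted from 1 at the 5′ end with the base of miR395a/d/e first. miR399b/c-3p differs from miR399a by G13T alone. From miR399d it differs by G13T and T20C, from miR399f by G13T and T20G, and from miR399e by G13T, C19T and T20C. No difference between these copies falls in the seed. Only reads identical to a listed sequence were counted. Single bases outside the seed therefore assign each read to one of these miR395 or miR399 copies. The seed of miR827 is shared with no other sequence of the table.

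Each sequence matched the TAIR10.1 assembly only at the annotated mature position of its own MIR genes. The 3 genes that encode miR395a/d/e all lie on the minus strand of chromosome 1. These are MIR395a (AT1G26973, mature sequence at 9363206 to 9363226), MIR395d (AT1G69792, 26269989 to 26270009) and MIR395e (AT1G69795, 26272786 to 26272806). The 3 genes for miR395b/c/f all lie on the plus strand of the same chromosome. They are MIR395b (AT1G26975, 9364540 to 9364560), MIR395c (AT1G26985, 9367149 to 9367169) and MIR395f (AT1G69797, 26273939 to 26273959). The 6 genes form 2 clusters, MIR395a to c within 3984 bases and MIR395d to f within 3991 bases, and each cluster holds both sequences. The reads therefore separate the strands but not the clusters.

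**Figure D1:**
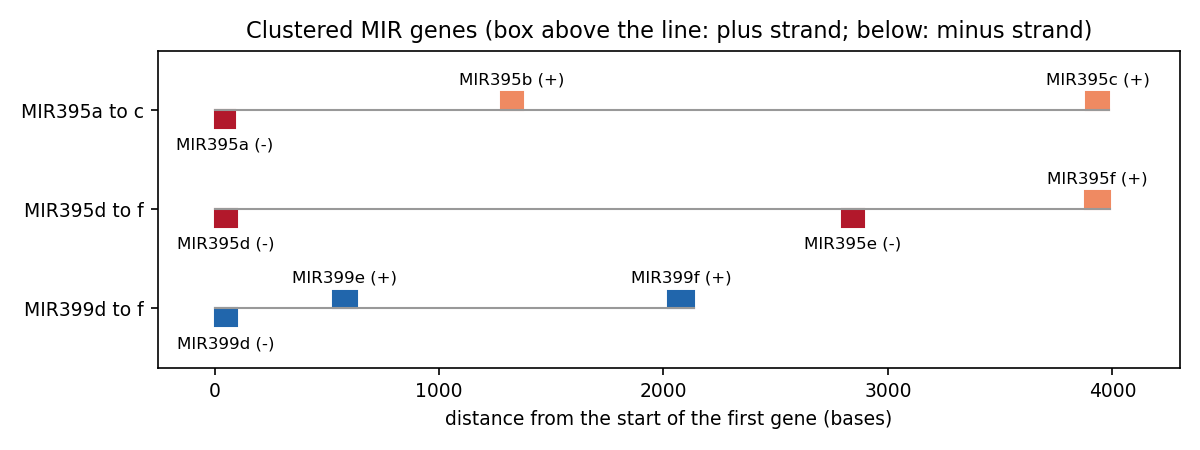
The 3 groups of neighbouring MIR genes are drawn to scale against the distance in bases from the start of the first gene, with boxes above the line for the plus strand and below it for the minus strand. Genes for miR395a/d/e are red, for miR395b/c/f orange and for miR399 blue. Each MIR395 cluster spans 3984 or 3991 bases and holds minus-strand and plus-strand copies, and the MIR399d to f cluster spans 2137 bases.

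miR399b/c-3p is encoded by MIR399b (AT1G63005, chromosome 1, 23345387 to 23345407, minus strand) and MIR399c (AT5G62162, chromosome 5, 24962568 to 24962588, plus strand). MIR399d, MIR399e and MIR399f lie side by side on chromosome 2 within 2137 bases, and MIR399a (AT1G29265) lies on chromosome 1 with its mature sequence at 10227165 to 10227185. MIR827 (AT3G59884) carries its sequence on the minus strand of chromosome 3 at 22122811 to 22122831. MIR399c is the only one of these genes with both hairpin strands in the table. Its annotated precursor of 114 bases is shown to place the counted strands, which are in capitals, miR399c-5p first and miR399c-3p second.
MIR399c precursor: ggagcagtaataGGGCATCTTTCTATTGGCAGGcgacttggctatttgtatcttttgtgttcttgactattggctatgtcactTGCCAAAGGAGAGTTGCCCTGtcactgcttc
The strands are separated by 50 bases of the loop side of the hairpin. The strand opposite to the one that pairs with the target is normally degraded, and in MIR399c it gave 1 read in all libraries together.

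The base that separates the copies also lies in the paired part of the known target sites, which were read from the annotated transcripts of TAIR10.1. In the site lines below, capitals mark bases that form Watson-Crick pairs with the miRNA named.
APS4 with miR395a/d/e: GAGTTCCtCCAAACACTTCAt
APS4 with miR395b/c/f: GAGTtCCtCCAAACACTTCAt
APS1 with miR395a/d/e: GAGTTCCtCCAAACtCTTCAt
SULTR2;1 with miR395a/d/e: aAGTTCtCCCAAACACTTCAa
PHO2 with miR399b/c-3p: tAGGGCAtaTCTCCTTTGGCA
PHO2 with miR399a: tAGGGCAtATCTCCTTTGGCA
IPS1 with miR399b/c-3p: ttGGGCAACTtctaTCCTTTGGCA
NLA with miR827: tGTTTGTTGATGGTCATCTAA
miR395a/d/e paired with 19 of 21 bases in APS4 and with 18 in APS1, APS3 and SULTR2;1, and miR395b/c/f with 1 base fewer in each of these 4 coding regions, where A17G turns an A:T pair into a G:T wobble. PHO2 held 5 sites for miR399 in its 5′ UTR (limit of 5 bases without a Watson-Crick pair), and miR399a paired with 18 or 19 bases and miR399b/c-3p with 17 or 18. In IPS1, with 3 extra bases placed opposite the gap between miRNA positions 10 and 11, the order was the other way round, with 18 bases for miR399b/c-3p and 17 for miR399a. NLA held 1 site for miR827 in its 5′ UTR with 20 of 21 bases paired. These matches describe letters only, and no target transcript was measured.

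The 9 sequences together received 531 reads over the 6 libraries, 448 of them from miR395, 78 from miR399 and 5 from miR827. Genome-matched totals ranged from 16041013 to 19601046 reads per library, and all miRNAs together from 6670 to 34567 reads. Levels are given in RPTM, reads per 10000000 genome-matched reads, in which the floor of 3 reads is 1.53 to 1.87. A mean of at least 10 reads per library, the minimum set for a test, was reached by 3 of the 9 sequences, namely miR395a/d/e, miR395b/c/f and miR399b/c-3p. Of the other 6, miR827 had at most 1 read in any library, miR399c-5p had 1 read in WT replicate 2 only, and miR399a, miR399d, miR399e and miR399f had 0 reads in all 6 libraries. The last 4 were not detectable at this depth, and 0 reads allow a level up to the floor of the library. All libraries are bulk extracts, in which a smaller share of cells of one type and less RNA per cell cannot be told apart. The hyl1-2 libraries had total miRNA levels of 3643 and 3624 RPTM against 21142 and 18668 in WT, and snrk2.2/3/6 had 17175 in replicate 1 and 6475 in replicate 2, so the replicates of the triple mutant stood far apart.

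Summed over its sequences, miR395 was the most abundant of the 3 families in every library. In WT it was at 43.5 ± 16.6 RPTM (SD, n = 2), the 23rd highest of 95 miRNA families with reads in WT. miR399 was at 14.4 ± 7.33 RPTM and ranked 35th, and miR827 was at 0.613 ± 0.001 RPTM, which is 1 read in each WT library, and ranked 75th. In snrk2.2/3/6 miR395 ranked 14th of 83 families with reads and miR399 43rd. In hyl1-2 the ranks were 21 and 26 of 64. Measured against the floor of 3 reads, miR395 was above it in each library, miR399 was above it in each library except snrk2.2/3/6 replicate 2 with 2 reads, and miR827 was below it throughout.

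miR395 was lower in hyl1-2 than in WT, and in snrk2.2/3/6 it was within or above the WT range. miR395a/d/e had 11 and 29 reads in WT replicates 1 and 2, 6 and 5 in the hyl1-2 replicates, and 65 and 34 in those of the triple mutant. Scaled, WT had 6.73 and 17.8 RPTM, the hyl1-2 libraries 3.06 and 2.72, and the triple mutant 38.5 and 21.2. The groups did not overlap, with hyl1-2 lowest and the triple mutant highest. How many other sequences were separated in this way was not counted. Of the 59 sequences that reached the minimum for a test, 55 had a log2 fold change below 0 in hyl1-2 against WT. In snrk2.2/3/6 against WT 14 of the 59 lay above 0. miR395b/c/f, the more abundant sequence, had 41 and 61 reads in WT, 8 and 23 in the hyl1-2 replicates, and 124 and 41 in those of the triple mutant. Its levels were 25.1 and 37.4 RPTM for WT, 4.08 and 12.5 for hyl1-2, and 73.4 and 25.6 for the triple mutant. Here too hyl1-2 lay below WT, but of the triple mutant only replicate 1 lay above WT, while replicate 2 fell between the WT libraries. The counting error of single libraries (95% Wilson intervals) was wide, for example 1.40 to 6.68 RPTM for miR395a/d/e in hyl1-2 replicate 1 and 61.6 to 87.5 RPTM for miR395b/c/f in snrk2.2/3/6 replicate 1.

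**Figure D2:**
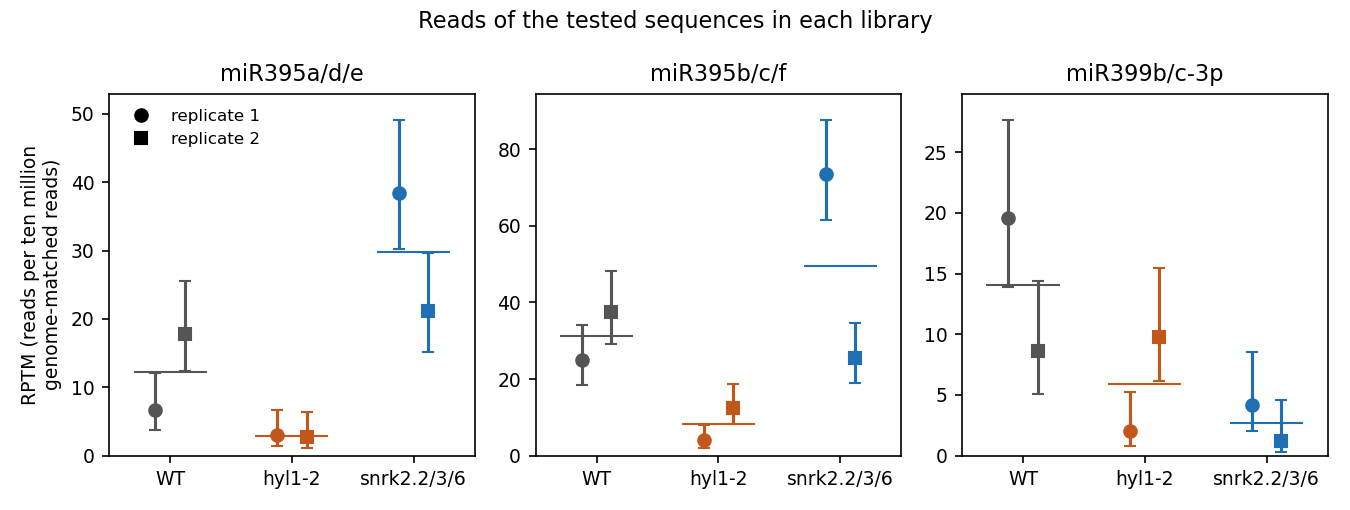
RPTM (linear axes from 0) of the 3 tested sequences in each library, with circles for replicate 1, squares for replicate 2, bars for 95% Wilson intervals of the reads and horizontal lines for genotype means. miR395a/d/e is highest in both snrk2.2/3/6 libraries (38.5 and 21.2), whereas miR399b/c-3p is highest in WT replicate 1 (19.6), at 8.59 in WT replicate 2 and 9.78 in hyl1-2 replicate 2, and lowest in snrk2.2/3/6 replicate 2 (1.25).

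By edgeR's quasi-likelihood test with genome-matched totals and Benjamini-Hochberg adjustment over the 59 tested sequences, miR395a/d/e fell in hyl1-2 (log2 fold change -2.06, SE 0.97, adjusted p = 0.04997). For miR395b/c/f the value was -1.91 (SE 0.93), just short of the threshold (adjusted p = 0.0538). Of the 3 tested members 1 was thus called lower in hyl1-2, where 67.8% of all tested sequences were called lower and 1.69% higher. The median log2 fold change was -1.91 over the 3 members and -2.62 over all 59, so the members stood above the middle of the distribution. The call of miR395a/d/e was lost when any 1 WT or hyl1-2 library was left out (adjusted p from 0.102 to 0.433), with the replicate number as a block (adjusted p = 0.0631) and with a minimum of 5 reads (adjusted p = 0.0578). With TMM factors, which remove a shift shared by most miRNAs, its log2 fold change became 0.60 (adjusted p = 0.604).

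Summed as a family, miR395 had 14 and 28 reads in hyl1-2 against 52 and 90 in WT, or 11.2 ± 5.71 against 43.5 ± 16.6 RPTM (SD, n = 2), 25.7% of WT. The family was called lower (log2 fold change -1.96, SE 0.91, adjusted p = 0.0444, edgeR over 39 families), where 71.8% of families were called lower. Leaving out any 1 WT or hyl1-2 library raised the adjusted p to between 0.0941 and 0.292. An exact permutation test of 2 libraries against 2 gave p = 0.333 (two-sided), the smallest p this design allows.

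In snrk2.2/3/6 the same family had 189 and 75 reads, 112 and 46.8 RPTM, or 79.3 ± 46.1 RPTM (SD, n = 2) and 182% of the WT mean. Replicate 1 lay above both WT libraries and replicate 2 between them, and the family did not pass (log2 fold change 0.87, SE 0.86, adjusted p = 0.494, edgeR), where 2.56% of families were called lower. For single sequences it was 1.28 for miR395a/d/e (SE 0.87, adjusted p = 0.440) and 0.66 for miR395b/c/f (SE 0.87, adjusted p = 0.736). Among the 59 tested sequences these were the 3rd and 6th highest values, and 14 of the 59 lay above 0. Of the tested members, 0 were called in this comparison by edgeR, by DESeq2 with genome-matched totals or by limma. Without adjustment, edgeR put 1 of them, miR399b/c-3p, under 0.05, as it did 10 of all 59 tested sequences, each of the 10 lower. Over all tested sequences 3.39% were called lower and 0.0% higher. Without snrk2.2/3/6 replicate 1, the library that lay highest, the log2 fold change of miR395b/c/f was -0.29.

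In the direct comparison miR395a/d/e was lower in hyl1-2 than in the triple mutant (log2 fold change -3.34, SE 0.97, adjusted p = 0.00410, edgeR), and so was miR395b/c/f (-2.57, SE 0.94, adjusted p = 0.0190). For each of these 2 sequences the mutants did not overlap. How many of the 59 tested sequences were without such overlap was not counted, but 52 of them had a log2 fold change below 0 here. Of the 3 tested members 2 were called lower, against 45.8% of all tested sequences, with 0.0% called higher. The family total passed as well (log2 fold change -2.82, SE 0.93, adjusted p = 0.0115), where 46.2% of families were lower, but not without a WT library (adjusted p = 0.0601 and 0.0655) or a hyl1-2 library (0.215 and 0.0734). With TMM factors, the total miRNA count or DESeq2's own size factors it was -1.21, -1.16 and -1.21 and did not pass (adjusted p = 0.117, 0.102 and 0.0605), and it was smaller in size than the values of snrk2.2/3/6 against WT on those scales (1.72, 1.62 and 1.81). Neither sequence kept its call when a hyl1-2 library or snrk2.2/3/6 replicate 1 was left out. miR395a/d/e then had an adjusted p of 0.0655 without hyl1-2 replicate 1, 0.0665 without hyl1-2 replicate 2 and 0.0514 without snrk2.2/3/6 replicate 1, and miR395b/c/f had 0.262, 0.0665 and 0.166. miR395b/c/f also lost it without WT replicate 1 (0.0994) or WT replicate 2 (0.0950).

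**Figure D3:**
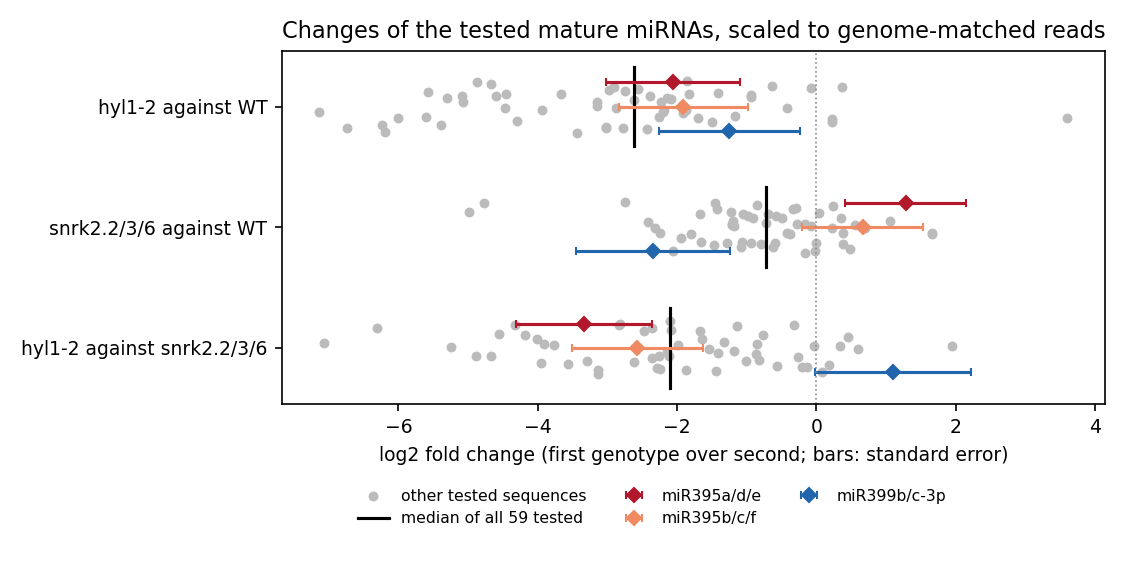
Log2 fold changes (edgeR, scaled to genome-matched reads) of all 59 tested sequences in the 3 comparisons, with grey points for other miRNAs, black lines for the median and coloured diamonds with standard errors for the members. The miR395 sequences lie above the median in hyl1-2 against WT, at the upper end in snrk2.2/3/6 against WT (1.28 and 0.66), and miR399b/c-3p lies at the lower end there (-2.35).

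Relative to the other miRNAs of the same library, miR395 took a larger share in both snrk2.2/3/6 libraries than in WT. Of all miRNA reads it took 0.150% and 0.296% in the WT libraries, 0.196% and 0.4198% in those of hyl1-2, and 0.651% and 0.722% in those of the triple mutant. The replicates of the triple mutant, which differed 2.39 times in RPTM, were close to each other on this scale, and both lay above all WT and hyl1-2 libraries. The number of families separated in this way was not counted. Replicate 2 had a total miRNA level of 6475 RPTM, against 21142 and 18668 in WT. Its miR395 level of 46.8 RPTM lay between the WT libraries, at 31.8 and 55.2. The mean share in snrk2.2/3/6 was 3.08 times that in WT (exact permutation test, two-sided p = 0.333, the smallest possible). With the total miRNA count as library size, edgeR called the family higher in snrk2.2/3/6 than in WT (log2 fold change 1.62, adjusted p = 0.0202), and miR395a/d/e as well (2.10, adjusted p = 0.0376). On this scale 4 of the 59 tested sequences were called higher, with TMM factors 4 and with DESeq2's own size factors 5. The share of families called higher was not counted, and the median over all 39 families with the total miRNA count was -0.162. The family and miR395a/d/e also passed with DESeq2's own size factors (adjusted p = 0.00379 and 0.0218). With TMM factors miR395a/d/e passed (adjusted p = 0.0492) and the family did not (adjusted p = 0.0605). On the same scales miR395 in hyl1-2 was not below WT, with family log2 fold changes from 0.46 to 0.60 (adjusted p from 0.407 to 0.529). The direction of miR395 in hyl1-2 therefore depends on the scale, while in snrk2.2/3/6 the family value was positive on each of the scales used. The scalings shift the median of all 59 tested sequences, from -2.62 to 0.115 with TMM factors in hyl1-2 and from -0.725 to 0.069 in snrk2.2/3/6.

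**Figure D4:**
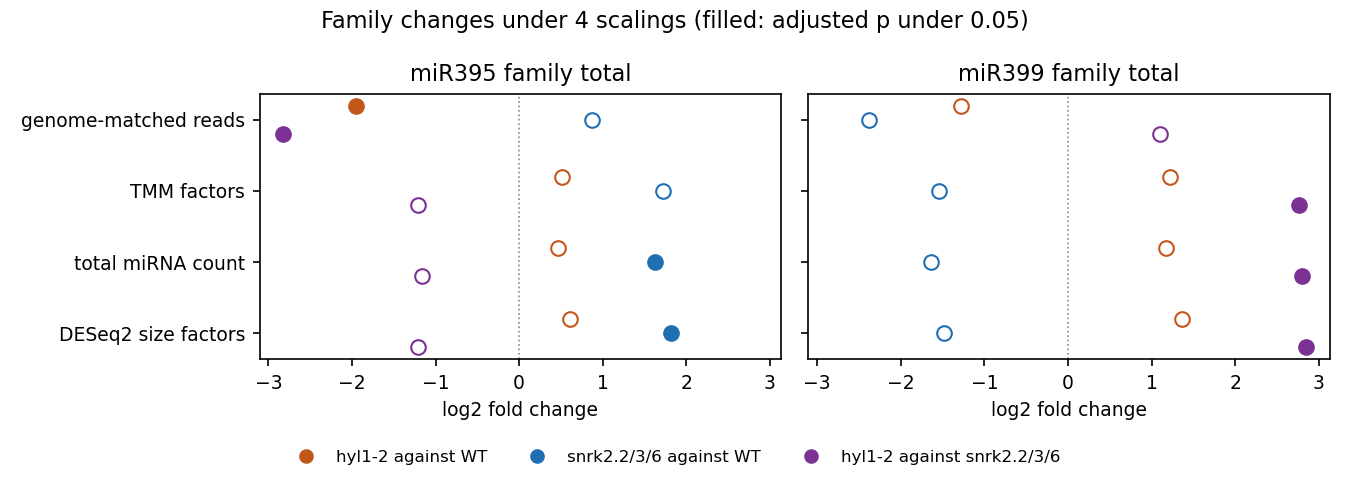
Log2 fold changes of the miR395 and miR399 family totals in the 3 comparisons with genome-matched totals, TMM factors and total miRNA counts (edgeR) and with DESeq2's own size factors, where filled points have an adjusted p under 0.05. Values against WT in hyl1-2 change sign between the first scaling and the other 3, whereas those in snrk2.2/3/6 stay positive for miR395 and negative for miR399.

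The mean level of miR399 was lowest in the triple mutant, where the difference from WT did not pass the test. miR399b/c-3p had 32 and 14 reads in WT, 4 and 18 in the hyl1-2 replicates, and 7 and 2 in those of the triple mutant. Scaled, WT had 19.6 and 8.59 RPTM, hyl1-2 libraries 2.04 and 9.78, and the triple mutant 4.14 and 1.25. The triple mutant did not reach the lower WT library, while hyl1-2 overlapped both WT and the triple mutant and its own replicates differed widely. The number of tested sequences with such a gap between the triple mutant and WT was not counted. For the triple mutant against WT the log2 fold change was -2.35 (SE 1.10, adjusted p = 0.252, edgeR), in the lower part of the distribution at rank 55 of 59 but not past the threshold. For hyl1-2 against WT it was -1.25 (SE 1.01, adjusted p = 0.253), and for hyl1-2 against the triple mutant 1.10 (SE 1.12, adjusted p = 0.437). Over 17 alternatives the family total in snrk2.2/3/6 against WT stayed negative. With no library left out it did not pass (adjusted p from 0.0561 with limma to 0.428 with edgeR and no filter). Without snrk2.2/3/6 replicate 1, the library with more miRNA, its log2 fold change was -3.45. The median over all 39 families then moved as well, from -0.843 to -1.878. A p above the threshold does not show equal levels.

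Summed with miR399c-5p, the family was at 14.4 ± 7.33 RPTM in WT (SD, n = 2). The hyl1-2 mean was 5.91 ± 5.47 RPTM, 41.1% of WT, and the triple mutant mean 2.70 ± 2.05 RPTM, 18.7% of WT, with replicate 2 under the floor. Its share of miRNA reads was 0.0926% and 0.0493% for WT, 0.0560% and 0.270% for hyl1-2, and 0.0241% and 0.0193% for the triple mutant. On this scale both snrk2.2/3/6 libraries lay below all WT and hyl1-2 libraries, whereas in RPTM the mutants overlapped. Other families were not counted for such a separation, so it is not shown to be particular to miR399. Replicate 2 of hyl1-2 stood out with the highest share. With the total miRNA count as library size, miR399b/c-3p was called higher in hyl1-2 than in the triple mutant (log2 fold change 2.80, adjusted p = 0.0150), as were 10 of the 59 tested sequences. Without hyl1-2 replicate 2 the main log2 fold change of this comparison was -0.40.

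Since the mean levels of miR395 and miR399 in the triple mutant lay on opposite sides of WT, their reads were also set against each other within each library, where no library size enters. Per read of miR399 there were 1.62 and 6.00 reads of miR395 in the WT libraries, 3.50 and 1.56 in those of hyl1-2, and 27.0 and 37.5 in those of the triple mutant. Exact 95% intervals for counting error were 12.9 to 68.1 and 10.03 to 315 in snrk2.2/3/6, and 1.03 to 2.61 and 3.45 to 11.2 in WT. The second of these ratios rests on 2 reads of miR399, which is under the floor. Both values of the triple mutant lay above the other 4 libraries, and WT and hyl1-2 overlapped. On the log2 scale the difference between snrk2.2/3/6 and WT was 3.35 (means 4.99 ± 0.34 and 1.64 ± 1.33, SD, n = 2, exact permutation test, two-sided p = 0.333, the smallest possible). This ratio was computed after those levels had been seen.

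**Figure D5:**
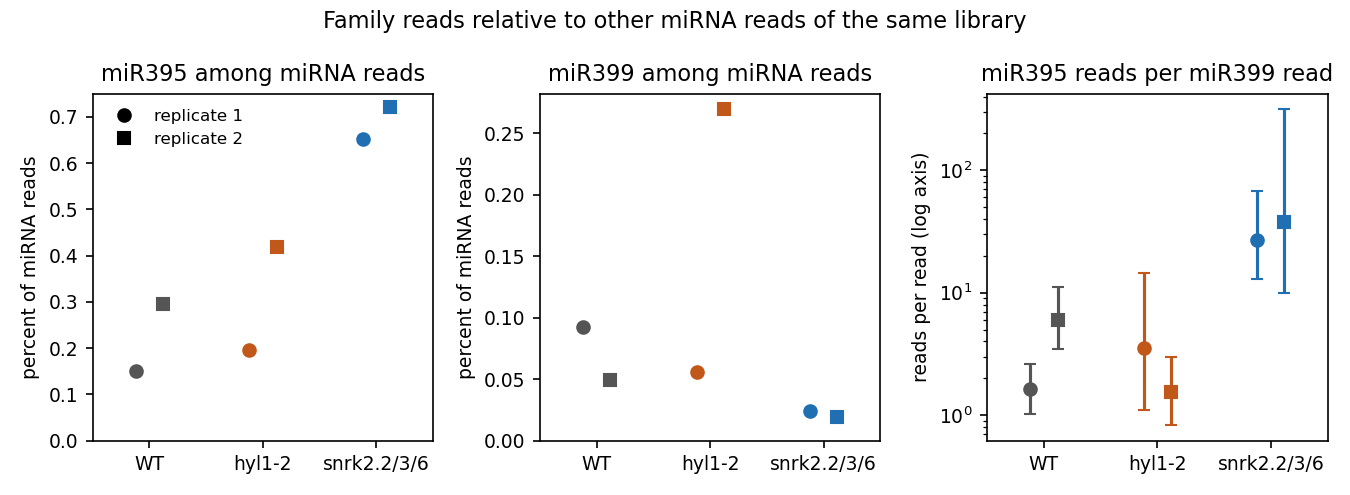
Percent of miRNA reads taken by miR395 (left) and miR399 (middle, both axes from 0), and reads of miR395 per read of miR399 on a log axis with exact 95% intervals (right), in each of the 6 libraries. Both snrk2.2/3/6 libraries are highest for miR395 (0.651% and 0.722%), lowest for miR399 (0.0241% and 0.0193%) and at ratios of 27.0 and 37.5, against 1.56 to 6.00 in the other 4.

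The balance between the 2 miR395 sequences was less distinct. miR395a/d/e made up 21.2% and 32.2% of miR395 reads in WT, 42.9% and 17.9% in the hyl1-2 replicates, and 34.4% and 45.3% in those of the triple mutant. The exact 95% intervals ran from 6.06% to 36.9% in hyl1-2 replicate 2 and from 33.8% to 57.3% in snrk2.2/3/6 replicate 2. Means were 26.7 ± 7.83% in WT and 39.9 ± 7.74% in snrk2.2/3/6 (SD, n = 2), with both triple mutant libraries above both WT libraries (exact permutation test, two-sided p = 0.333, the smallest possible), and hyl1-2 overlapped both. Copies on the minus strand of the clusters thus gave the minority of the miR395 reads counted in all 6 libraries, by 6 against 8 in hyl1-2 replicate 1. Counting error alone left the order open in that library, with an interval of 17.7% to 71.1%, and in snrk2.2/3/6 replicate 2.

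miR827 had 1 read in each library except hyl1-2 replicate 1, which had 0. At such counts every group is below the floor of 3 reads per library, no fold change is given, and differences between genotypes were not detectable. The other phosphate-responsive miRNAs of the table, miR778, which targets a histone methyltransferase, and miR2111, which acts on an F-box protein, had 0 reads in all libraries in each of their 4 sequences. Among phosphate-related sequences, miR399b/c-3p was therefore the only one with more than 1 read in any library.

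The copper miRNAs, another group that answers to nutrient supply, were taken for comparison. They act on laccases, plantacyanin and copper/zinc superoxide dismutases. Of their 9 sequences (miR397, miR398, miR408 and miR857) 8 had reads and 5 were tested. In hyl1-2 2 of the 5 were called lower than in WT, which were miR398b-3p/c-3p and miR398a-3p (log2 fold changes -2.15 and -2.57, adjusted p = 0.00925 and 0.0122), and the median of the 5 was -1.41, where 67.8% of all tested sequences were called lower and the median was -2.62. In snrk2.2/3/6 0 of the 5 were called by edgeR, with values from -1.21 to 0.69 and a median of -0.003. The values of miR395a/d/e, miR395b/c/f and miR399b/c-3p in the triple mutant were 1.28, 0.66 and -2.35, of which the first and the last lay outside this range.

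Across the 6 libraries, the families whose centred log2(RPTM + 1) profile lay closest to that of miR395 were miR163 (root mean square difference 0.371), miR846 (0.379) and miR167 (0.492), against a median of 1.198 over 38 families. miR163 had 608 and 835 reads in WT, 189 and 169 in the hyl1-2 replicates, and 2269 and 797 in those of the triple mutant. It thus shared with miR395 a low level in hyl1-2 and a high one in snrk2.2/3/6 replicate 1. For miR399 the closest were miR408 (0.712), miR168 (0.861) and miR394 (0.862), against a median of 1.34. For miR827, whose profile rests on 5 reads, they were miR408 (0.521), miR822 (0.579) and miR5026 (0.667), against a median of 1.15 over 39 families. These distances describe the libraries at hand and share their depth and total miRNA level.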

How the data were processed

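Small RNA-seq of rosette leaves covered the 3 genotypes; sample titles gave genotype and replicate number. The authors trimmed adaptors, size-selected reads, mapped them to TAIR10 and kept for the table reads that equal a mature miRBase sequence. The mapping tool is not given in the sources used here. The deposited count values are raw whole reads per mature sequence. The deposited RPTM values are a signal, scaled by the authors to genome-matched small RNA reads. Genome-matched totals were recovered from the counts and RPTM values.

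The test was edgeR's quasi-likelihood F test (version 4.0.16, R 4.3.3, glmQLFit and glmQLFTest). All 6 libraries entered 1 fit whose sole factor was genotype. A genotype outside a comparison therefore entered it only through the shared estimate of the spread. Library sizes were the genome-matched totals, without TMM. The 59 sequences averaging 10 or more reads were tested, and p-values were adjusted over them by Benjamini-Hochberg. The standard error (SE) was taken as |log2 fold change| over √F. The same test was run on the table summed by miRNA number (39 families tested, the first name deciding for the 2 sequences that name several families). The edgeR step was tested on simulated data. Alternatives used DESeq2 1.42.0, limma 3.58.1 on log2(RPTM + 1), other library sizes and filters, a replicate block and the omission of each library. A block with crossed snrk2.2/3/6 numbers was added after the data were seen. Python 3.11.15, scipy 1.17.1, statsmodels 0.14.6 and matplotlib 3.10.9 were used for other steps.

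Intervals and floors cover counting error only, because reads, not molecules, were counted and PCR copies of 1 molecule can count more than once. Between replicates, counts varied more than sampling allows (chi-square over its degrees of freedom, 10.5 to 18.0). Positions and sequences are exact matches to TAIR10.1 with its RefSeq annotation. All members were named. The families closest to each member family were the 3 with the smallest profile distance among families with a mean of at least 10 reads. The members and lists were chosen with earlier results of these data known.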

Additional observations from a re-analysis of the deposited data

Results flagged for a closer look

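The changes of miR395 from WT differed between the mutants by a direct test of the difference. For hyl1-2 against the triple mutant the log2 fold change was -3.34 for miR395a/d/e, -2.57 for miR395b/c/f and -2.82 for the family total (edgeR, adjusted p = 0.00410, 0.0190 and 0.0115), with no overlap between the mutants. In the same comparison 45.8% of sequences and 46.2% of families were called lower. Of all 59 sequences 52 had a log2 fold change below 0, and the median was -2.10. The family call was lost without either WT library (adjusted p = 0.0601 and 0.0655) or either hyl1-2 library (0.215 and 0.0734). Total miRNA levels moved with it, at 3643 and 3624 RPTM in hyl1-2 and at 17175 and 6475 in snrk2.2/3/6, and with the total miRNA count as library size the family difference was -1.16 (adjusted p = 0.102).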

How the results depend on the processing

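The number of members called lower in hyl1-2 than in WT was 1, and it was 0 with TMM factors, the total miRNA count, DESeq2's own size factors, no filter, a minimum of 5 reads or the replicate block, and 2 with DESeq2 and genome-matched totals, limma or only the 2 genotypes compared (0 to 2 with 1 library left out). In snrk2.2/3/6 it was 0, and 1 was higher with TMM factors, the total miRNA count and DESeq2's own size factors, as were 4, 4 and 5 of all 59 sequences. Between the mutants it was 2 lower, and 0 without a filter, 1 with only the 2 genotypes compared, and 1 higher instead with those 3 scalings, each of which called 10 of the 59 higher (0 to 2 with 1 library left out). Replicate numbers mark no shared origin in the labels. Deviations of libraries with the same number correlated at r = 0.288 for WT and hyl1-2, -0.301 for WT and the triple mutant and -0.175 for the mutants. After these were seen, with the pairing crossed in the block 1, 0 and 2 members were called. In hyl1-2 this was miR395b/c/f (adjusted p = 0.0416) in place of miR395a/d/e (0.0661). The whole table moved too, from 40 of 59 called lower in hyl1-2 to 15, 17 and 10 with the 3 scalings, and to 0 of 174 without a filter (64 lower and 1 higher at an unadjusted p under 0.05). With the replicate block the family values kept their calls.

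With TMM factors, the total miRNA count and DESeq2's own size factors, the log2 fold change in hyl1-2 against WT was 0.51, 0.46 and 0.60 for miR395, 0.60, 0.34 and 0.45 for miR395a/d/e, 0.67, 0.51 and 0.62 for miR395b/c/f, 1.22, 1.17 and 1.37 for miR399 and 1.36, 1.202 and 1.33 for miR399b/c-3p. Between the mutants these scalings gave -1.21, -1.16 and -1.21 for miR395 and 2.76, 2.80 and 2.85 for miR399, and in snrk2.2/3/6 against WT the total miRNA count and DESeq2's size factors gave 1.62 and 1.81 for miR395. For miR395 the hyl1-2 value of -1.96 lost its call without a filter (adjusted p = 0.135) and with a minimum of 5 reads (0.0629), and the value between the mutants (-2.82) without a filter (0.152) and with only the 2 genotypes compared (0.0849). Leaving out each library gave -2.59 to -1.505 in hyl1-2, 0.10 to 1.36 in snrk2.2/3/6 and -3.46 to -2.06 between the mutants for miR395, and -2.77 to -0.55, -3.45 to -1.74 and -0.40 to 2.17 for miR399. It gave -0.29 to 1.23 for miR395b/c/f in snrk2.2/3/6 and -0.40 to 2.17 for miR399b/c-3p between the mutants. Scaled to the total miRNA count, family totals were 138% (miR395, hyl1-2), 308% (miR395, snrk2.2/3/6) and 230% (miR399, hyl1-2) of WT, and in hyl1-2 44.8% (miR395) and 751% (miR399) of snrk2.2/3/6. With 1 library left out, hyl1-2 was at 9.0 to 23.9% of snrk2.2/3/6 for miR395 and at 75.7 to 474% for miR399. The cause was not tested beyond the construction of these scalings, which remove a shift shared by most miRNAs. Depth limits miR399 and miR827 most.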
